A study of Mus musculus with 11 samples.

Results

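The genes described here are 6 genes of the cytotoxic granule programme, Nkg7, Gzma, Gzmk, Prf1, Fasl and Hopx, followed through CD4 T cells of the lacrimal gland. They were chosen by name, and every probe set that the array's annotation assigns to one of these symbols alone was taken, which gave 6 of 17097 genes and 9 of 45037 probe sets, none of them removed by a filter. The cells came from male NOD mice aged 16 weeks, which are prone to autoimmunity and serve as a model of lacrimal gland (LG) inflammation. Live CD4+ TCRβ+ gland cells were sorted into LG_naive, which lacked surface PD-1 and ICOS, and into effector conventional (LG_eTconv) and effector regulatory (LG_eTreg) cells, each PD-1 high and ICOS high, with 3 arrays per subset. The spleens of these mice gave 1 array of total CD4 T cells (Spl_CD4) and 1 of total CD8 T cells (Spl_CD8), which serves as the killer cell reference. The labels name no treatment, transgene or deletion, and they give the same CD73 and CD200 gate for both effector subsets. Whether the replicates of a subset are different mice or pools is not given, so the p-values cover the spread among these samples alone, which may be technical. All values are log2 signals after robust multi-array averaging (RMA), with the base of the logarithm inferred, and differences are log2 differences, so 1 is a 2-fold difference.

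Killer lymphocytes store perforin and granzymes in lytic granules bound to a proteoglycan matrix, and release them at the contact with a target cell. Perforin opens the target membrane, granzymes enter and cleave proteins inside, and Fas ligand kills by a separate route through the receptor Fas. These programmes are best known from CD8 T cells and natural killer cells, where the T-box factors T-bet (Tbx21) and Eomes and the factor Runx3 drive them, while CD4 T cells normally keep them low through Zbtb7b (ThPOK). CD4 T cells, regulatory cells included, can acquire parts of the programme in chronically inflamed tissue.

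Promoter windows are shown for the 3 granule genes that a single probe set measures: Nkg7 and Gzmk, which were both higher in effector cells than in LG_naive, and Gzma, which lies near Gzmk on chromosome 13 with 1 gene listed between them and had another pattern. Each window is the RefSeq sequence of build GRCm38.p6 from 250 bases before to 50 bases after the annotated start, read 5′ to 3′ on the gene's strand. Capitals mark matches on either strand to the T-box core GGTGTGA (reverse complement TCACACC) and the RUNX core ACCACA (reverse complement TGTGGT).
Nkg7, chr7:43436888-43437187, plus strand: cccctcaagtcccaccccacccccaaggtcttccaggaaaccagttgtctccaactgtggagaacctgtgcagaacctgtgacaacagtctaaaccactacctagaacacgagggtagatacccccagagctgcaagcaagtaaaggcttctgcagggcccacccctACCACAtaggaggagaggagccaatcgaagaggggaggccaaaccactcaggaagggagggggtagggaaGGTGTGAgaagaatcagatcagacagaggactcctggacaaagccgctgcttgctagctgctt
Gzmk, chr13:113180916-113181215, minus strand: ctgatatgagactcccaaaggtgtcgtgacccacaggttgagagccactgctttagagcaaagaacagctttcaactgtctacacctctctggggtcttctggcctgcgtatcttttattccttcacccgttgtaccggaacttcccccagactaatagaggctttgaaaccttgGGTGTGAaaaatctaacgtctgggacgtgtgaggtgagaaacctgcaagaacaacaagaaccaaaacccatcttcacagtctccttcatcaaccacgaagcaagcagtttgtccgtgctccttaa
Gzma, chr13:113100932-113101231, minus strand: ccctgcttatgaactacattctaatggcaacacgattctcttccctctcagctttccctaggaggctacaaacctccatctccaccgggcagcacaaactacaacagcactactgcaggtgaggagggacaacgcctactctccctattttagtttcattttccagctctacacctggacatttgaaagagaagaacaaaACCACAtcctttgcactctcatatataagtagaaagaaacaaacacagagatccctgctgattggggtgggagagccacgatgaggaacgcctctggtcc
The Nkg7 window held 1 match to the T-box core and 1 to the RUNX core, which did not overlap. The Gzmk window held 1 match to the T-box core and the Gzma window 1 to the RUNX core. Of 32851 promoter windows of the same length, 3.98% held the T-box core and 16.8% the RUNX core, so the RUNX match in particular is common. Among the other genes, the Prf1 window held 1 RUNX match, the Gzmb window 2 RUNX matches and 1 match to the AP-1 core TGANTCA (7.81% of windows), and those of Fasl and Hopx held none of the 3. A match is a stretch of letters and no measurement of binding.

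The sorted cells carried the markers of CD4 T cells. All 6 T cell markers were above the background limit on every array, Cd4 ran from 8.35 to 9.02 on the CD4 arrays and was 2.47 on Spl_CD8, and the CD8 chain Cd8b1 ran from 0.62 to 1.83 on the CD4 arrays and was 6.43 on Spl_CD8. Cd8a was higher on LG_eTconv (6.16 to 6.83) than on LG_naive (4.51 to 5.19) and LG_eTreg (5.13 to 5.23), against 9.35 on Spl_CD8. Markers of other cells differed between the subsets, mostly with the highest signal in LG_naive. Of 5 natural killer markers measured, Ncr1 and Klra8 were not above the limit on any array, and the list's summed signal ran from 7.96 to 8.46 on LG_naive, 4.69 to 5.28 on LG_eTconv and 4.95 to 5.06 on LG_eTreg, carried by Tyrobp. The sums of 6 macrophage and monocyte markers were 7.59 to 8.44, 6.35 to 6.62 and 6.43 to 6.60 in the same order. Those of 3 plasmacytoid dendritic cell markers were 7.09 to 7.53, 4.86 to 5.01 and 3.87 to 4.33, and those of 4 gland epithelium markers 7.22 to 8.59, 5.54 to 5.78 and 6.83 to 7.48. The sums of 3 B cell markers were 4.91 to 5.33, 4.65 to 5.0 and 3.42 to 3.97 on the gland subsets but 8.09 on Spl_CD4 and 8.78 on Spl_CD8, so neither spleen array was free of B cell RNA. On Spl_CD4 and Spl_CD8 the natural killer sums were 6.80 and 6.61, with Tyrobp at 6.45 and 6.11. Their macrophage and monocyte sums were 8.05 and 8.32, and their plasmacytoid dendritic cell sums 5.57 and 7.72. The part of other cells in the results below was not tested. The background limit, the highest of 23 nonspecific control probe sets, ran from 0.945 to 1.70 over the arrays. Array medians over all genes were 2.26 to 2.39. The control signal for 18S ribosomal RNA was 6.63 on LG_naive 1 and 6.69 on LG_eTreg 3 against 4.34 to 5.69 on the other arrays. Actin control probe sets at the 3′ end exceeded those at the 5′ end by 3.35 on LG_eTconv 1, 2.86 on LG_eTreg 1 and 2.46 on LG_eTconv 2 against 1.53 to 2.04 on the others.

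The effector CD4 cells of the gland held only parts of the killer programme, and the 2 effector subsets held different parts. Nkg7 and Gzmk were higher in both than in LG_naive, Fasl was highest in LG_eTconv, and Hopx and Gzma were highest in LG_eTreg among the gland subsets. The perforin gene was not higher in either effector subset on either of its probe sets. With limma and Benjamini-Hochberg adjustment over all genes, 3 of the 6 genes were called in LG_eTconv against LG_naive (Nkg7, Gzmk and Fasl, all higher), where 13.5% of all genes were called (6.45% higher and 7.02% lower). In LG_eTreg against LG_naive 3 of 6 were called (Nkg7, Gzmk and Hopx, all higher), where 11.7% of all genes were called (6.2% higher and 5.47% lower). Both comparisons share the LG_naive arrays. Between the effector subsets 3 of 6 were called (Gzma and Hopx higher and Fasl lower in LG_eTreg), where 5.7% of all genes were called (2.94% higher and 2.76% lower). The arrays of the groups did not overlap for 4 of the 6 genes in each comparison, against 31.1%, 27.1% and 21.5% of all genes. The count in LG_eTconv against LG_naive dropped to 1 without LG_eTconv 1, LG_eTconv 2 or LG_naive 2, that between the effector subsets to 1 without LG_eTconv 1, LG_eTconv 2 or LG_eTreg 2, and that in LG_eTreg against LG_naive was 3 whichever array was left out. In bulk RNA, fewer cells that express a gene and less RNA per cell cannot be told apart.

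**Figure D1:**
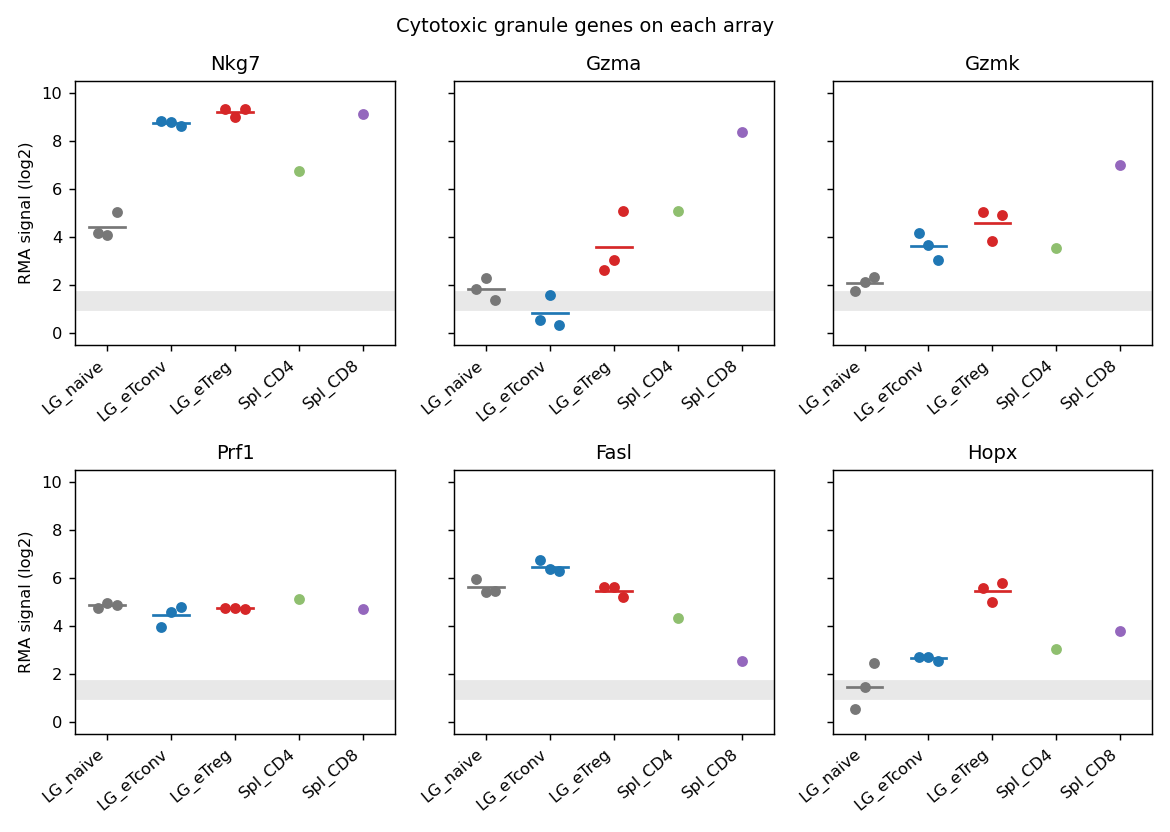
Log2 RMA signal (vertical axis) of Nkg7, Gzma, Gzmk, Prf1, Fasl and Hopx, each by its main probe set, on the 3 arrays of LG_naive, LG_eTconv and LG_eTreg and on the single Spl_CD4 and Spl_CD8 arrays; points are arrays, bars are gland group means and the grey band is the range of the background limit (0.945 to 1.70). Nkg7 on the effector arrays (8.62 to 9.35) lies beside Spl_CD8 (9.14), while Gzma and Gzmk stay below Spl_CD8 and Fasl stays above it.

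Nkg7, a membrane protein of lytic granules that takes part in granule release, had the largest change. Its log2 signal was 4.16, 4.10 and 5.02 on the LG_naive arrays, 8.85, 8.78 and 8.62 on LG_eTconv, 9.33, 8.98 and 9.35 on LG_eTreg, 6.75 on Spl_CD4 and 9.14 on Spl_CD8. All 6 effector arrays were far above all LG_naive arrays, and Spl_CD4 lay between them. The difference LG_eTconv minus LG_naive was 4.32 (SE 0.24, 95% confidence interval 3.77 to 4.88), a 20.0-fold higher signal with a limma adjusted p of 1.07e-05. LG_eTreg minus LG_naive was 4.79 (SE 0.24, interval 4.24 to 5.35), 27.7-fold higher with an adjusted p of 8.29e-06. By signed difference, with the largest rise first, Nkg7 ranked 67 and 16 of 17097 genes in these comparisons. In ascending order of mean signal the gland subsets were LG_naive (4.43 ± 0.52, SD, n = 3), LG_eTconv (8.75 ± 0.12) and LG_eTreg (9.22 ± 0.21). The effector arrays did not overlap, but their difference of 0.47 (interval -0.08 to 1.03) did not pass the test (adjusted p = 0.408). Against Spl_CD8 the mean difference was -0.39 for LG_eTconv, with 0 of 3 arrays above it, and 0.08 for LG_eTreg, with 2 of 3 above it. The gland effector CD4 arrays thus lay close to the splenic CD8 array for this gene, and the LG_naive mean differed from it by -4.71.

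Gzma encodes granzyme A, a tryptase stored in the granules. It was near or below the background limit on most LG_naive and LG_eTconv arrays and above it on all LG_eTreg arrays. Its signal was 1.84, 2.30 and 1.38 on LG_naive, 0.53, 1.57 and 0.34 on LG_eTconv, 2.60, 3.05 and 5.07 on LG_eTreg, 5.09 on Spl_CD4 and 8.39 on Spl_CD8. It was above its array's limit on 2, 1 and 3 arrays of LG_naive, LG_eTconv and LG_eTreg. All LG_eTreg arrays were higher than all other gland arrays, with LG_eTreg 3 well above the other 2, and LG_naive and LG_eTconv overlapped. LG_eTreg minus LG_eTconv was 2.76 (SE 0.62, interval 1.33 to 4.18), 6.76-fold higher, a fold that takes in LG_eTconv values below the limit. The limma adjusted p was 0.0389. This call was lost when any 1 of LG_eTconv 1, LG_eTconv 2, LG_eTconv 3, LG_eTreg 2, LG_naive 1, LG_naive 2 or LG_naive 3 was left out (adjusted p from 0.0528 to 0.131), and it held without LG_eTreg 1 or LG_eTreg 3, with a difference of 2.01 without the latter. That array also had the higher 18S signal, whose part in the result was not tested. Against LG_naive the difference was 1.73 in LG_eTreg (interval 0.31 to 3.16, adjusted p = 0.130) and -1.02 in LG_eTconv (interval -2.45 to 0.40, adjusted p = 0.377), and neither passed the test. In ascending order the means were LG_eTconv (0.81 ± 0.66), LG_naive (1.84 ± 0.46) and LG_eTreg (3.57 ± 1.31), with Spl_CD4 and Spl_CD8 above all of them.

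Gzmk encodes granzyme K, a second tryptase that is often found in memory-like killer cells. Its signal was 1.74, 2.11 and 2.32 on LG_naive, 4.17, 3.66 and 3.04 on LG_eTconv, 5.04, 3.81 and 4.92 on LG_eTreg, 3.55 on Spl_CD4 and 7.01 on Spl_CD8. Both effector subsets were above LG_naive on every array, they overlapped with each other, and all stayed below Spl_CD8. LG_eTreg minus LG_naive was 2.53 (SE 0.38, interval 1.66 to 3.41), 5.79-fold higher with an adjusted p of 0.00313. LG_eTconv minus LG_naive was 1.57 (SE 0.38, interval 0.69 to 2.44), 2.96-fold higher with an adjusted p of 0.0285. The latter call was lost without LG_eTconv 1, LG_eTconv 2, LG_naive 1, LG_naive 2 or LG_naive 3 (adjusted p from 0.0553 to 0.0948), the former held in every such fit. From LG_naive (2.06 ± 0.29) through LG_eTconv (3.62 ± 0.57) to LG_eTreg (4.59 ± 0.68) the means ascended. The last 2 neighbours in that order differed by 0.97 (interval 0.09 to 1.84), which did not pass the test (adjusted p = 0.248).

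Gzmb, which encodes the apoptosis-inducing protease granzyme B and is no member of the 6, separated the effector subsets most clearly among the granzymes. Its signal was 0.70, 0.49 and 0.48 on LG_naive, 0.79, 0.89 and 1.21 on LG_eTconv, 5.26, 5.94 and 5.93 on LG_eTreg, 3.29 on Spl_CD4 and 3.51 on Spl_CD8. All 3 LG_eTreg arrays were above both spleen arrays, and no LG_naive and 1 LG_eTconv array was above its background limit. LG_eTreg minus LG_eTconv was 4.74 (adjusted p = 6.68e-06), and against LG_naive the signal was at least 19.3-fold higher when computed against the background limit (adjusted p = 2.99e-06). LG_eTconv minus LG_naive was 0.41 (adjusted p = 0.263), among values mostly at the limit. By mean signal Gzmk and Gzmb ascended in the same order, LG_naive, LG_eTconv and LG_eTreg, while Gzma was lowest in LG_eTconv. All 3 granzymes had their highest gland mean in LG_eTreg.

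Prf1 encodes perforin, the pore former, and its 2 probe sets disagreed. On the brighter one, used in the main fit, the signal was 4.72, 4.94 and 4.86 on LG_naive, 3.93, 4.57 and 4.79 on LG_eTconv, 4.75, 4.74 and 4.70 on LG_eTreg, 5.13 on Spl_CD4 and 4.71 on Spl_CD8. Apart from LG_eTconv 1 these values were nearly flat, and Spl_CD8, the killer reference, lay within the range of the CD4 arrays. LG_eTconv 1 also had the widest 3′ to 5′ gap in its actin controls (3.35), whose part in this low value was not tested. The differences were -0.41 for LG_eTconv minus LG_naive (interval -0.87 to 0.05, adjusted p = 0.261) and -0.11 for LG_eTreg minus LG_naive (interval -0.57 to 0.35, adjusted p = 0.833). LG_eTreg minus LG_eTconv was 0.30 (interval -0.16 to 0.76, adjusted p = 0.573).

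On the dimmer Prf1 probe set the signal was 3.40, 2.59 and 2.63 on LG_naive, 1.26, 0.80 and 1.27 on LG_eTconv, 1.34, 1.36 and 1.68 on LG_eTreg, 2.50 on Spl_CD4 and 3.99 on Spl_CD8. Here Spl_CD8 was the highest array and all effector arrays were below all LG_naive and both spleen arrays. In a limma fit over all 45037 probe sets, LG_eTconv minus LG_naive was -1.76 (SE 0.24, interval -2.31 to -1.20, adjusted p = 0.00261), where 9.11% of probe sets were called. LG_eTreg minus LG_naive was -1.41 (interval -1.97 to -0.86, adjusted p = 0.00936), where 7.6% were called. The effector subsets differed by 0.35 (adjusted p = 0.646, with 3.46% of probe sets called in that comparison). On this probe set 1 of 3 LG_eTconv arrays was above its limit. Beside this fall, Tyrobp and Fcer1g, which natural killer and myeloid cells share, also fell in both effector subsets, by 3.58 and 2.37 in LG_eTconv and by 3.75 and 1.76 in LG_eTreg, and the macrophage gene Cd68 fell by 2.45 and 2.05. The natural killer genes Ncr1 and Klra8 were at background on every array, Spl_CD8 included, so they cannot show how much natural killer RNA a subset held. Among 13 killer surface receptors, Klrd1 fell by 2.47 in LG_eTconv and 3.56 in LG_eTreg, while 3 and 4 receptors rose. The part of natural killer and myeloid cells in the result was not tested. Which probe set follows perforin mRNA more closely was not tested either. On neither was Prf1 higher in effector cells, while Nkg7 was.

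**Figure D2:**
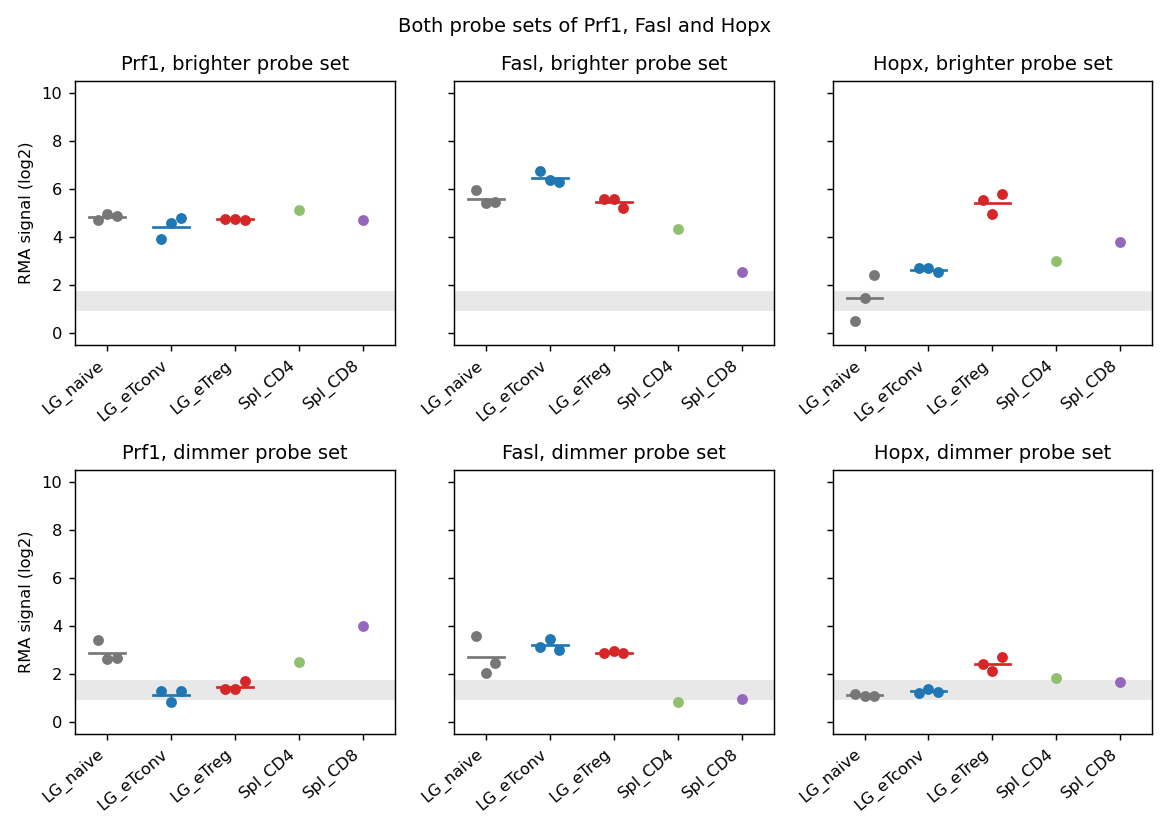
Log2 RMA signal (vertical axis) of both probe sets of Prf1, Fasl and Hopx on every array, with group means as bars and the range of the background limit as a grey band. The brighter Prf1 probe set is flat near 4.7 on LG_eTreg and Spl_CD8 alike, and the dimmer one runs from 0.80 on LG_eTconv 2 to 3.99 on Spl_CD8; the Hopx probe sets both peak in LG_eTreg.

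Fasl encodes Fas ligand, which triggers death of Fas-bearing cells without granule proteases. Its signal was 5.96, 5.40 and 5.44 on LG_naive, 6.73, 6.37 and 6.28 on LG_eTconv, 5.60, 5.59 and 5.19 on LG_eTreg, 4.33 on Spl_CD4 and 2.53 on Spl_CD8. Every gland array was above both spleen arrays, all LG_eTconv arrays were above the other gland arrays, and LG_naive and LG_eTreg overlapped. LG_eTconv minus LG_naive was 0.86 (SE 0.20, interval 0.40 to 1.32), 1.81-fold higher with an adjusted p of 0.0235. LG_eTreg minus LG_eTconv was -1.0 (SE 0.20, interval -1.46 to -0.54), a 2-fold lower signal with an adjusted p of 0.0233. Both calls were near the threshold: the first was lost without LG_eTconv 1, LG_eTconv 2, LG_naive 2 or LG_naive 3 (adjusted p from 0.0574 to 0.0844), and the second without LG_eTconv 1, LG_eTconv 2, LG_eTreg 2 or LG_eTreg 3 (0.0547 to 0.0824). LG_eTreg minus LG_naive was -0.14 (interval -0.60 to 0.32, adjusted p = 0.780). The means ascended from LG_eTreg (5.46 ± 0.23) over LG_naive (5.60 ± 0.31), which did not differ beyond their spread, to LG_eTconv (6.46 ± 0.24).

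The dimmer Fasl probe set gave 3.57, 2.04 and 2.42 on LG_naive, 3.10, 3.46 and 3.0 on LG_eTconv, 2.84, 2.92 and 2.85 on LG_eTreg, 0.80 on Spl_CD4 and 0.92 on Spl_CD8. It too was higher on every gland array than in the spleen. LG_naive 1 was the highest gland array, and none of the 3 gland comparisons passed the test (0.51, 0.20 and -0.32, adjusted p = 0.500, 0.855 and 0.804). With the mean of both probe sets, LG_eTconv minus LG_naive was 0.69 (adjusted p = 0.115) and LG_eTreg minus LG_eTconv was -0.66 (adjusted p = 0.213), so both Fasl calls rest on the brighter probe set.

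Hopx, a small homeodomain protein that binds no DNA itself and marks effector and memory killer cells and induced regulatory T cells, set LG_eTreg apart. Its signal was 0.51, 1.45 and 2.42 on LG_naive, 2.69, 2.70 and 2.52 on LG_eTconv, 5.55, 4.97 and 5.77 on LG_eTreg, 3.01 on Spl_CD4 and 3.78 on Spl_CD8. The LG_eTreg arrays were the 3 highest of all 11, and LG_eTconv was above LG_naive without overlap, where LG_naive 1 was not above its background limit. LG_eTreg minus LG_naive was 3.97 (SE 0.43, interval 2.99 to 4.95), 15.7-fold higher with an adjusted p of 0.000478. LG_eTreg minus LG_eTconv was 2.79 (SE 0.43, interval 1.81 to 3.77), 6.92-fold higher with an adjusted p of 0.00597. LG_eTconv minus LG_naive was 1.18 (interval 0.20 to 2.16, adjusted p = 0.121) and passed the test only without LG_naive 3 (1.66, adjusted p = 0.0159). In ascending order the means were LG_naive (1.46 ± 0.96), LG_eTconv (2.64 ± 0.10) and LG_eTreg (5.43 ± 0.41).

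The second Hopx probe set, whose suffix marks probes that can match transcripts of more than 1 gene, was dimmer and gave the same order. Its signal was 1.15, 1.05 and 1.08 on LG_naive, 1.19, 1.35 and 1.23 on LG_eTconv, 2.39, 2.09 and 2.70 on LG_eTreg, 1.83 on Spl_CD4 and 1.66 on Spl_CD8. LG_eTreg was again the highest group without overlap, and no LG_naive array was above its limit. LG_eTreg was at least 1.93-fold higher than LG_naive, computed against the limit (adjusted p = 0.0013), and LG_eTreg minus LG_eTconv was 1.13 (adjusted p = 0.00556), with 2 of 3 LG_eTconv arrays above their limit. LG_eTconv minus LG_naive was 0.17 (adjusted p = 0.642).

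**Figure D3:**
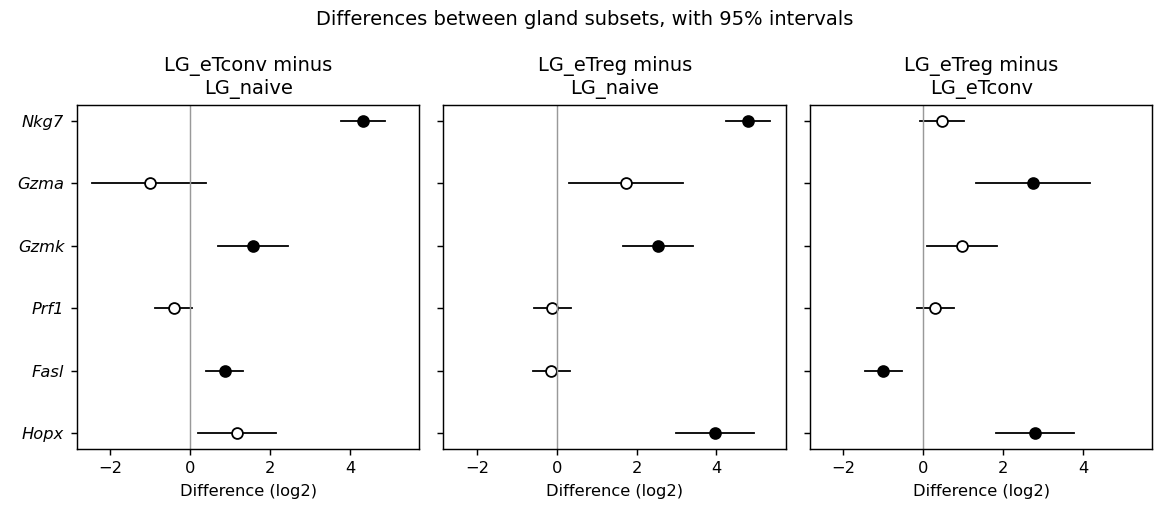
Log2 differences (horizontal axis) of the 6 genes, each by its main probe set, in the 3 gland comparisons, with 95% confidence intervals from limma as lines. Filled points passed an adjusted p of 0.05 over all 17097 genes. Nkg7 lies at 4.32 and 4.79 against LG_naive, and Fasl and Hopx lie on opposite sides of 0 between the effector subsets (-1.0 and 2.79). Prf1 stays within 0.41 of 0 in every comparison. Its dimmer probe set, not drawn, gave -1.76 in LG_eTconv and -1.41 in LG_eTreg against LG_naive.

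Set against total splenic CD8 cells, the effector CD4 cells of the gland had Nkg7 signals close to that of Spl_CD8, lower Gzma and Gzmk signals and a higher Fasl signal. Spl_CD8 and Spl_CD4 are single arrays, so these differences have no test. Both also carry the markers of B cells and of other cells given above, whose part was not tested. A gene was counted where the group mean differed by at least 1 with all 3 gland arrays on one side. LG_naive had 4 of the 6 genes lower than Spl_CD8 (Nkg7, Gzma, Gzmk and Hopx) and 1 higher (Fasl), where 5.43% and 6.11% of all genes were lower and higher. LG_eTconv had 3 lower (Gzma, Gzmk and Hopx) and 1 higher (Fasl), with 7.76% and 7.67% of all genes. LG_eTreg had 2 lower (Gzma and Gzmk) and 2 higher (Fasl and Hopx), with 7.06% and 7.69% of all genes. Gzma was 28.2-fold lower in LG_eTreg than on Spl_CD8. In LG_eTconv only 1 of 3 arrays was above its limit, and with the values below the limit set to it the log2 difference from Spl_CD8 was -6.94. Gzmk was 10.4-fold lower in LG_eTconv and 5.34-fold lower in LG_eTreg. Fasl was 8.39-fold higher in LG_naive, 15.2-fold in LG_eTconv and 7.62-fold in LG_eTreg, and Hopx was 3.13-fold higher in LG_eTreg. Gzmb was 4.59-fold higher in LG_eTreg than on Spl_CD8, with 3 of 3 arrays above it. It was at least 4.2-fold lower in LG_naive, where no array was above its limit, and 4.5-fold lower in LG_eTconv with the values below the limit set to it. The dimmer Prf1 probe set differed from Spl_CD8 by -1.12, -2.87 and -2.53 in LG_naive, LG_eTconv and LG_eTreg, and the brighter by 0.13, -0.28 and 0.02.

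**Figure D4:**
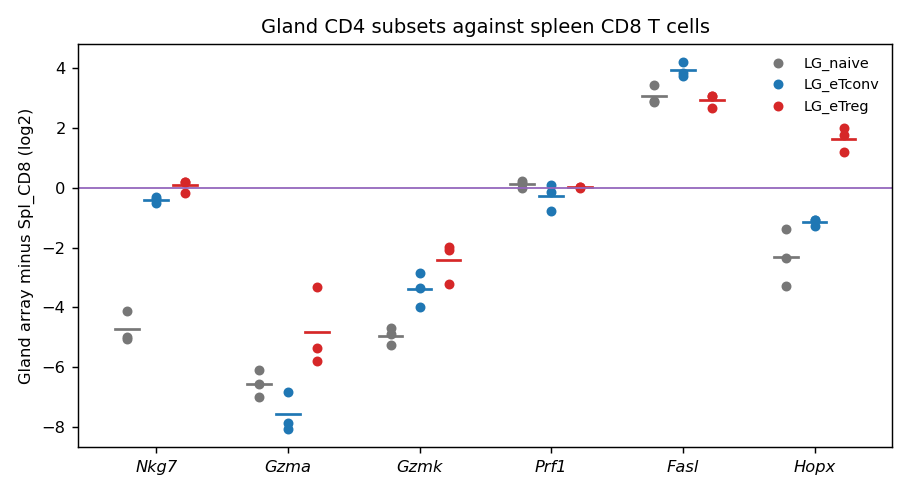
Log2 difference of each gland array from the single Spl_CD8 array (vertical axis) for the 6 genes, each by its main probe set. Points are arrays, and 0 marks the signal of Spl_CD8. Gzma and Gzmk lie below 0 on all 9 gland arrays and Fasl above 0 on all 9, while Nkg7 lies near 0 on the effector arrays only.

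The order of the spleen arrays themselves differed by gene. Spl_CD8 minus Spl_CD4 was 2.38 for Nkg7, 3.30 for Gzma, 3.46 for Gzmk and 0.77 for Hopx, and -1.80 for Fasl and -0.43 for Prf1. By a difference of at least 1, 3 of the 6 genes were higher on Spl_CD8 (3.75% of all genes) and 1 lower (4.5%). Against Spl_CD4, LG_eTconv had 2 of 6 genes higher (Nkg7 by 1.99 and Fasl by 2.13) and 1 lower (Gzma, -3.64 with values below the limit set to it), where 6.56% and 6.62% of all genes were higher and lower. LG_eTreg had 4 higher (Nkg7 by 2.46, Hopx by 2.41, Fasl by 1.13 and Gzmk by 1.05) and 1 lower (Gzma, -1.52), with 6.44% and 5.98% of all genes. LG_naive had 1 higher (Fasl by 1.27) and 4 lower (Nkg7, Gzma, Gzmk and Hopx, -3.25 to -1.49), with 4.67% and 4.57% of all genes. For Gzma and Hopx only 2 of 3 LG_naive arrays were above their limit. With values below the limit set to it, their differences were -3.24 and -1.16. The mean of Gzma was thus lower in every gland subset than on Spl_CD4, but LG_eTreg 3 (5.07) lay next to it (5.09).

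Of the granule contents list (15 genes: granzymes, perforin, matrix and processing proteases), 10 were above the limit on any gland array. Of its 11 genes outside the 6, 1 rose and 1 fell in LG_eTconv against LG_naive, 2 rose and 0 fell in LG_eTreg, and 1 rose between the effector subsets (Gzmb). In these 3 comparisons 13.5%, 11.7% and 5.7% of all genes were called. The shares of the whole list, which holds genes of the 6, were 26.7%, 26.7% and 13.3%. Counts over the 11 others are small. Ctsw, a cathepsin of killer lymphocytes, gave 6.75, 6.54 and 7.01 on LG_naive, 8.73, 8.68 and 8.78 on LG_eTconv and 8.32, 8.50 and 8.21 on LG_eTreg, with 7.26 on Spl_CD4 and 9.07 on Spl_CD8. It rose by 1.97 in LG_eTconv (adjusted p = 3.81e-05) and 1.58 in LG_eTreg (adjusted p = 0.000152), and both effector subsets lay between LG_naive and Spl_CD8. Srgn, the granule matrix proteoglycan serglycin, ran from 9.38 to 9.77 on all gland arrays. Gzmd, Gzme, Gzmf, Gzmg and Gzmn were below the limit on every array. The median difference over the 15 genes was 0.03, 0.24 and 0.30 in the 3 comparisons, beside -0.03, -0.02 and 0.01 over all genes.

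Of 24 genes of granule transport and fusion, 3 rose and 1 fell in LG_eTconv against LG_naive, 5 rose and 1 fell in LG_eTreg against LG_naive, and 3 rose in LG_eTreg against LG_eTconv. The shares called were 16.7%, 25.0% and 12.5%, against 13.5%, 11.7% and 5.7% of all genes, so the first lies near the share over all genes. The medians were -0.09, 0.23 and 0.13. Stx11, the syntaxin that fuses lytic granules with the cell membrane, rose by 4.03 in LG_eTconv (adjusted p = 2.01e-06) and by 3.70 in LG_eTreg. It ran from 8.20 to 8.73 on the effector arrays and was only 3.85 on Spl_CD8. Sytl2, a granule tether that binds Rab27a, gave 2.24, 2.94 and 3.12 on LG_naive, 1.20, 0.82 and 1.62 on LG_eTconv and 5.80, 6.39 and 6.89 on LG_eTreg. It was 5.15 higher in LG_eTreg than in LG_eTconv (adjusted p = 5.63e-05). Only 1 of 3 LG_eTconv arrays was above its limit for Sytl2, so the sizes of differences from LG_eTconv take in values below the limit. The call of the Sytl2 difference of -1.55 in LG_eTconv against LG_naive (adjusted p = 0.0177) was lost without LG_eTconv 1, LG_eTconv 2, LG_naive 2 or LG_naive 3. The count of called genes here fell from 4 to 2 without LG_eTconv 2, LG_naive 2 or LG_naive 3 in LG_eTconv against LG_naive, and from 3 to 1 without LG_eTconv 2, LG_eTconv 3 or LG_eTreg 2 between the effector subsets.

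Of 4 cytosolic serpins that protect cells from granule proteases, 1 rose in LG_eTconv against LG_naive (Serpinb6a, by 2.48, adjusted p = 0.000379) and 2 rose in LG_eTreg (Serpinb6a and Serpinb6b, by 1.12 and 1.58), with 0 called there without LG_eTreg 2, LG_naive 1 or LG_naive 2. Between the effector subsets 1 fell in LG_eTreg (Serpinb6a), with 0 called without LG_eTconv 2, LG_eTconv 3, LG_eTreg 1 or LG_eTreg 3. Of all genes 13.5%, 11.7% and 5.7% were called in these comparisons, and counts over 4 genes are small. Serpinb9, the granzyme B inhibitor, ran from 4.76 to 5.75 on the gland arrays and was not called.
Of the 11 death ligand and receptor genes other than Fasl, 3 rose and 2 fell in LG_eTconv against LG_naive. The comparison of LG_eTreg with LG_naive had 2 risen and 2 fallen, that of the effector subsets 1 risen and 2 fallen. The shares of all genes called were 13.5%, 11.7% and 5.7% in the same order, and counts over 11 genes are small. Tnfsf10, which encodes the death ligand TRAIL, rose by 1.88 in LG_eTconv (adjusted p = 3.32e-05) and by 1.44 in LG_eTreg. Its receptor gene Tnfrsf10b fell in LG_eTconv, where it was at least 2.24-fold lower computed against the limit (adjusted p = 0.00793). Only 2 of 3 LG_naive arrays were above their limit for it. The other Tnfrsf10b probe set gave -0.74 (adjusted p = 0.0586) in the limma fit over all probe sets and was not called. Lta, the lymphotoxin alpha gene, rose by 2.30 in LG_eTconv (adjusted p = 0.000608) and differed by -2.13 in LG_eTreg minus LG_eTconv. Like Fasl, it had its highest gland mean in LG_eTconv. Between the effector subsets the count of called genes in the whole list fell from 4 to 2 without LG_eTconv 2 or LG_eTreg 2, and in LG_eTreg against LG_naive from 4 to 2 without LG_naive 2 or LG_naive 3.

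Among 9 transcriptional drivers of killer programmes, 4 rose and 2 fell in LG_eTconv against LG_naive, 5 rose and 0 fell in LG_eTreg, and 3 rose and 3 fell in LG_eTreg against LG_eTconv, with medians of 0.59, 0.95 and 0.36. Hopx is among the 9, and 66.7%, 55.6% and 66.7% of them were called, against 13.5%, 11.7% and 5.7% of all genes. Tbx21, which encodes T-bet, gave 2.97, 3.07 and 2.23 on LG_naive, 6.13, 6.39 and 6.81 on LG_eTconv, 6.70, 6.94 and 7.57 on LG_eTreg, 4.78 on Spl_CD4 and 5.64 on Spl_CD8. It rose by 3.68 (adjusted p = 8.77e-05) and 4.31 (adjusted p = 4.86e-05), and all effector arrays were above Spl_CD8. Eomes ran the other way: it gave 2.62, 3.24 and 4.02 on LG_naive, 1.78, 1.88 and 0.85 on LG_eTconv, 1.26, 2.18 and 1.96 on LG_eTreg, 2.62 on Spl_CD4 and 6.98 on Spl_CD8. Every effector array was below every LG_naive array and far below Spl_CD8. Its difference from LG_naive was -1.79 in LG_eTconv (adjusted p = 0.0234, lost without LG_eTconv 3, LG_naive 2 or LG_naive 3) and -1.49 in LG_eTreg (adjusted p = 0.0559). In each effector subset 2 of 3 arrays were above their limit. A second Eomes probe set gave -1.32 (adjusted p = 0.248) and -0.99 (adjusted p = 0.4385) in the limma fit over all probe sets, and neither was called. Runx3 gave 6.73, 6.61 and 6.39 on LG_naive, 5.51, 5.12 and 5.48 on LG_eTconv, 6.58, 6.46 and 6.59 on LG_eTreg and 6.96 on Spl_CD8. It differed by -1.21 in LG_eTconv minus LG_naive (adjusted p = 0.000593) and was 1.17 higher in LG_eTreg than in LG_eTconv (adjusted p = 0.00157). Both calls rest on the brighter of 2 Runx3 probe sets, since the other gave -0.03 (adjusted p = 0.956) and 0.28 (adjusted p = 0.613). Prdm1, which encodes Blimp-1, rose by 3.78 in LG_eTreg against LG_naive and was 3.52 higher than in LG_eTconv.

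**Figure D5:**
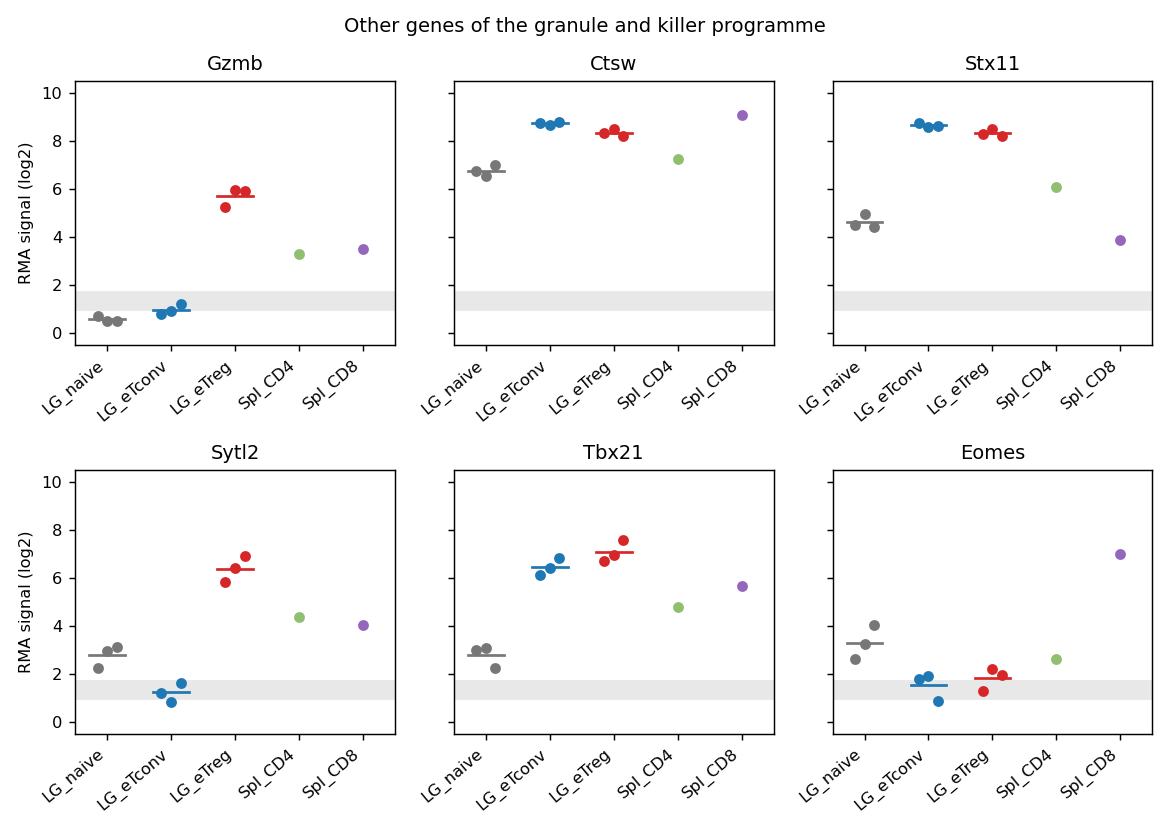
Log2 RMA signal (vertical axis) of Gzmb, Ctsw, Stx11, Sytl2, Tbx21 and Eomes on every array, with gland group means as bars and the range of the background limit as a grey band. Gzmb and Sytl2 are high on LG_eTreg only among the gland arrays, Ctsw, Stx11 and Tbx21 are high on both effector subsets, and Eomes is highest on Spl_CD8 (6.98).

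Of 5 regulators that hold killer programmes back, 1 rose and 1 fell in LG_eTconv against LG_naive. The comparison of LG_eTreg with LG_naive had 3 fallen and that of the effector subsets had 1 fallen. The medians were -0.48, -1.14 and -0.46 in the same order. Of all genes 13.5%, 11.7% and 5.7% were called in these comparisons, and counts over 5 genes are small. Lef1, a factor of naive T cells, was at least 6.67-fold lower in LG_eTconv than in LG_naive, and Bach2 differed by -3.98 in LG_eTreg minus LG_naive and by -3.13 in LG_eTreg minus LG_eTconv. Zbtb7b, the CD4 lineage factor, differed by -0.09, -0.01 and 0.08 in the 3 comparisons (adjusted p = 0.775, 0.983 and 0.870). On the probe set used, its signal was only 1.71 to 2.06 on the gland arrays, 2.12 on Spl_CD4 and 0.66 on Spl_CD8. The gland values lay close to the background limit (0.945 to 1.70), so a fall could hardly be seen.
Of 13 killer surface receptors, 3 rose and 2 fell in LG_eTconv against LG_naive, 4 rose and 3 fell in LG_eTreg, and 2 rose between the effector subsets. That makes 38.5%, 53.8% and 15.4% of the receptors, against 13.5%, 11.7% and 5.7% of all genes. The interleukin receptor chain genes Il18rap (3.83 and 3.60) and Il2rb (2.64 and 3.20) rose in both effector subsets, while Klrd1, which encodes the natural killer receptor chain CD94, fell by 2.47 and 3.56. Klrg1, a marker of terminal effector cells, was at least 4.62-fold higher in LG_eTreg than in LG_eTconv. The count of called receptors in LG_eTreg against LG_naive fell from 7 to 4 without LG_naive 3, and between the effector subsets from 2 to 1 without LG_eTconv 1, LG_eTconv 3, LG_eTreg 1 or LG_eTreg 3.
Of 4 chemokine genes and the cytokine gene Ifng, all made by killer lymphocytes, 2 rose and 1 fell in LG_eTconv against LG_naive, 3 rose in LG_eTreg, and 2 rose and 1 fell between the effector subsets. In each comparison 60.0% of this short list was called, against 13.5%, 11.7% and 5.7% of all genes. Ifng rose by 4.93 in LG_eTconv and 4.31 in LG_eTreg, and between the effector subsets Xcl1 was lower in LG_eTreg (-3.67) and Ccl5 higher (2.91).

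The genes whose signal followed each of the 6 most closely over the 9 gland arrays were found by Pearson's r among 10945 genes above the limit on at least 3 of them. These values mainly reflect the 3 subsets, which the arrays share, and are given as a description. For Nkg7 they were S100a6 (r = 0.995), Acot7 (0.994) and Ccr8 (0.994), and for Hopx Paqr4 (0.979), Ankrd6 (0.974) and Il10ra (0.971). For Gzmk they were Slc3a2 (0.962), Peak1 (0.959) and Anxa4 (0.959), and for Gzma 2010308F09Rik (0.953), Tmem97 (0.949) and Pttg1 (0.948). For Fasl they were Stambp (0.957), Bloc1s5 (0.954) and Myod1 (0.945), and for Prf1 Slc25a51 (0.956), Appbp2 (0.952) and Hnrnpm (0.948). None of the 6 was among the closest 3 of another.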

How the data were processed

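The authors deposited 1 table of log2 signals for 11 arrays (9 from the gland, 2 from the spleen), which RMA and Partek produced according to the tools named in the submitters' processing notes (no versions). Per the labels' protocols, RNA was amplified with NuGEN Ovation V2, and 1 sample not tied to a group had an RNA integrity number below the others. Of 45141 probe sets, 104 controls were left out, 28898 of the rest had 1 gene symbol, 551 several and 15588 none listed. Each of 17097 genes was represented by its brightest probe set on average over the gland arrays, and 7180 had more than 1. No dim gene was removed, and where a whole group lay at the background limit the fold is at least N-fold, against the limit. Differences came from limma 3.58.1 in R 4.3.3 (1 mean per gland subset, empirical Bayes, 6 residual degrees of freedom, two-sided, calls at p under 0.05 after Benjamini-Hochberg adjustment across genes), tested on simulated data. The number of arrays limits the precision. The 6 genes, lists and tests were chosen with earlier results of these data known, so no list is independent evidence. From each list, examples come from the 4 called genes with the largest change per comparison, beside Gzmb, Eomes, Runx3, Zbtb7b and Tbx21. Alternatives were other normalizations, priors, weights, probe set rules and samples.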

Additional observations from a re-analysis of the deposited data

Results flagged for a closer look

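The effector subsets differed directly in 3 of the 6 genes, by the limma test of LG_eTreg minus LG_eTconv, where 5.7% of all genes were called. The log2 difference was 2.76 for Gzma and 2.79 for Hopx, both higher in LG_eTreg on 3 of 3 arrays, and -1.0 for Fasl, lower on 3 of 3. With 1 array left out, Hopx stayed called in 9 of 9 fits, Fasl in 5 of 9 and Gzma in 2 of 9. The dimmer Fasl probe set gave -0.32 in the limma fit over all probe sets and was not called (adjusted p = 0.804). Against LG_naive, Gzma differed by -1.02 in LG_eTconv and 1.73 in LG_eTreg, Hopx by 1.18 and 3.97, and Fasl by 0.86 and -0.14.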

How the results depend on the processing

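Under all 20 alternatives tried for each, 9 of which left out 1 array, Nkg7 stayed called against LG_naive in LG_eTconv (4.14 to 4.62) and LG_eTreg (4.59 to 5.09), as did Gzmk (2.21 to 2.92) and Hopx (2.63 to 4.45) in LG_eTreg against LG_naive, and Hopx in LG_eTreg against LG_eTconv (1.96 to 3.02). Leaving out 1 array gave ranges of 1.29 to 1.86 for Gzmk, 0.72 to 1.04 for Fasl and 0.70 to 1.66 for Hopx in LG_eTconv against LG_naive, -0.24 to 0.04 for Fasl in LG_eTreg against LG_naive (0.04, reversed, without LG_naive 1), and 2.01 to 3.25 for Gzma and -1.09 to -0.86 for Fasl between the effector subsets. The number of the 6 genes called ran from 1 to 3 in LG_eTconv against LG_naive and from 1 to 3 between the effector subsets, and the genes of all pathway lists called there from 14 to 24 (22 with all arrays, 14 without LG_eTconv 2). Without LG_naive 1, LG_eTconv 1 and LG_eTreg 3 together, the arrays with the highest 18S signal or the widest actin gap, Gzmk in LG_eTconv was 1.14 (adjusted p = 0.197), Gzma between the effector subsets 1.87 (0.148), Fasl in LG_eTreg against LG_naive 0.18, and 2, 3 and 2 of the 6 genes were called. With the mean of a gene's probe sets, Prf1 was called lower in LG_eTconv (-1.08, adjusted p = 0.00108) and LG_eTreg (-0.76, 0.00857) than in LG_naive, Fasl was 0.69 and -0.66 and no longer called where it had been, and 0.03 in LG_eTreg against LG_naive, and 2 of the 6 genes were lower in LG_eTconv than on Spl_CD4 in place of 1. Gzma between the effector subsets kept its difference of 2.76 but not its call with all probe sets in the fit (adjusted p = 0.06) or only the groups compared (0.0942). Over all probe sets 4103, 3424 and 1557 were called in place of 2303, 1995 and 974 genes. The cause was not tested beyond what each alternative changes.

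With the replicate number as a block, Gzmk in LG_eTconv against LG_naive (1.57, adjusted p = 0.0511) and Gzma between the effector subsets (2.76, 0.073) were no longer called, and 2, 3 and 2 of the 6 genes were called; no other call among the 6 genes changed. The numbers were not taken to pair samples, since the labels tie no number to a mouse. Correlations of same-numbered arrays' deviations ran from -0.0969 to 0.283, and those of differently numbered arrays from -0.23 to 0.186. Between LG_eTconv and LG_eTreg they were 0.283, 0.0788 and 0.171 for the same number and -0.23 to 0.0191 for different numbers. Whether the effector arrays are paired was not tested.

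Small differences that were not called changed sign: Gzmb in LG_eTconv against LG_naive with values set to the limit (-0.10), Eomes between the effector subsets without LG_eTconv 3 (-0.03 to 0.57 over the fits without 1 array), Zbtb7b in LG_eTconv against LG_naive (0.05 with the mean of probe sets and 0.05 without the 3 arrays) and between the effector subsets (-0.04 without the 3 arrays). In LG_eTreg against LG_naive Zbtb7b was 0.00 with array weights, 0.18 with the mean of probe sets, 0.03 with median centring, 0.04 with quantile normalization, 0.01 without the 3 arrays, 0.07 without LG_eTreg 2 and 0.08 without LG_naive 1. Runx3 there was 0.02 with array weights, 0.11 with the mean of probe sets, 0.01 with median centring, 0.02 without the 3 arrays, 0.01 without LG_eTreg 2 and 0.04 without LG_naive 1. Alternatives for the second probe sets were chosen after seeing the data: Prf1 stayed called lower against LG_naive in 13 of 13 for each effector subset (-1.90 to -1.49 and -1.56 to -1.15), Hopx in LG_eTconv against LG_naive was -0.06 with values set to the limit, and Fasl in LG_eTreg against LG_naive was -0.12 without LG_naive 2 (-0.12 to 0.64 over the fits without 1 array). In LG_eTconv it was called without LG_naive 1 (0.96, adjusted p = 0.0174), and Hopx lost its call between the effector subsets without the 3 arrays (0.94, 0.0509).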
